A study of Mus musculus with 12 samples.

Results

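The 58 genes described here encode the structural proteins of the extracellular matrix that carry collagen and laminin names, together with their basement membrane linkers. They are all 44 collagen chains (symbols beginning Col and a type number), all 11 laminin chains (Lama, Lamb and Lamc) and the linkers Nid1, Nid2 and Hspg2, chosen by symbol out of 38924 listed genes, and 52 of them passed the filter on low counts, as did 16645 genes in all. RNA-seq was performed on 12 pancreatic neuroendocrine tumors (PanNETs) of C57Bl6 mice of the RIP1TAG2 line, whose transgene drives a viral T antigen from the rat insulin promoter, so that islet beta cells form insulinomas. Mice were 15.5 weeks old when a treatment of 4 days began. The 4 control tumors (numbers 1, 2, 3 and 4) came from mice given saline, the 4 sunitinib-treated tumors (5, 6, 8 and 12) from mice given sunitinib alone, an inhibitor of the VEGF and PDGF receptor kinases, and the 4 R+S-treated tumors (4, 5, 7 and 10) from mice given rapamycin, an inhibitor of mTOR, with sunitinib. No group analysed here received rapamycin alone. Values in the tumors of a group are given below in the order of those numbers.

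Basement membranes are thin sheets of matrix under epithelia and around blood vessels, built on a network of laminin trimers (1 alpha, 1 beta and 1 gamma chain) and a network of type IV collagen, which nidogens and the heparan sulfate proteoglycan perlecan hold together. In pancreatic islets the capillaries lay down much of the basement membrane that the beta cells touch. Fibrillar collagens and type VI collagen form the interstitial matrix instead, largely from fibroblasts and mural cells.

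Libraries held 31872342 to 44215054 counts on genes (median 38526164), of which 0.116% to 0.336% fell on the 58 genes. Sunitinib tumor 6 stood apart: its log2 CPM (gene counts scaled to library size with TMM factors) correlated with the other sunitinib-treated tumors at r = 0.872 to 0.895 across genes, whereas those 3 correlated with each other at 0.957 to 0.978, control tumors at 0.967 to 0.991 and R+S-treated tumors at 0.967 to 0.982. Its 10 beta cell markers (Ins1, Ins2, Pdx1 and others) summed to 1856 CPM, against 31260 to 76790 CPM in the other 11 tumors. Fold changes of members printed below are therefore given both ways where, without tumor 6, they moved by over 1.5 times or lost or gained a call. Fold changes of other genes are given with tumor 6 only. Summed over 14 acinar markers, the level was 41.3 to 119 CPM in control, 9862 to 36170 CPM in sunitinib-treated and 2507 to 15190 CPM in R+S-treated tumors, and 13 of the 14 were higher in each treatment against control. The labels give the control tumors 1 name prefix (S409) and the treated tumors other prefixes (BX41 for sunitinib tumors 5, 6 and 8, BX44 for tumor 12, BZ50 for R+S tumor 4, BZ51 for 5 and 7, BZ75 for 10). They do not say what a prefix stands for, or whether tumors came from separate mice, so prefix and treatment cannot be told apart and p-values measure the spread between these tumors.

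The members lower in both treatments were the type IV collagen chains Col4a1 and Col4a2, the perlecan gene Hspg2, Nid2, Lama3, Lama4, Col13a1 and Col15a1, while no chain of type I or type III collagen passed against control. In sunitinib-treated against control tumors, 9 of the 52 members were lower and 2 higher (edgeR quasi-likelihood test, adjusted p under 0.05 over all 16645 genes), with a median log2 fold change of -0.22 against 0.03 over all genes. Over all genes 4.48% passed, 2.55% lower and 1.93% higher, and over the members 21.2%. In R+S-treated against control tumors, 11 members were lower and 0 higher by edgeR (5 higher at an unadjusted p under 0.05, and 4 by DESeq2 at an adjusted p under 0.05), with a median of -0.46 against 0.01. This is again 21.2% of the members, while 4.16% of all genes passed, 2.61% lower and 1.55% higher. Between R+S and sunitinib, 4 members were lower and 2 higher, or 11.5%, against 7.21% of all genes, 4.58% lower and 2.63% higher. Members reached the filter through any group, so a member high in 1 group alone could enter the test. Both comparisons with control use the same 4 control tumors. Without sunitinib tumor 6, 13 members passed against control (11 lower, 2 higher), and with treated tumors of a shared prefix summed and the 4 control tumors kept apart (leaving 2 sunitinib and 3 R+S units) the 3 comparisons gave 10, 13 and 3.

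**Figure D1:**
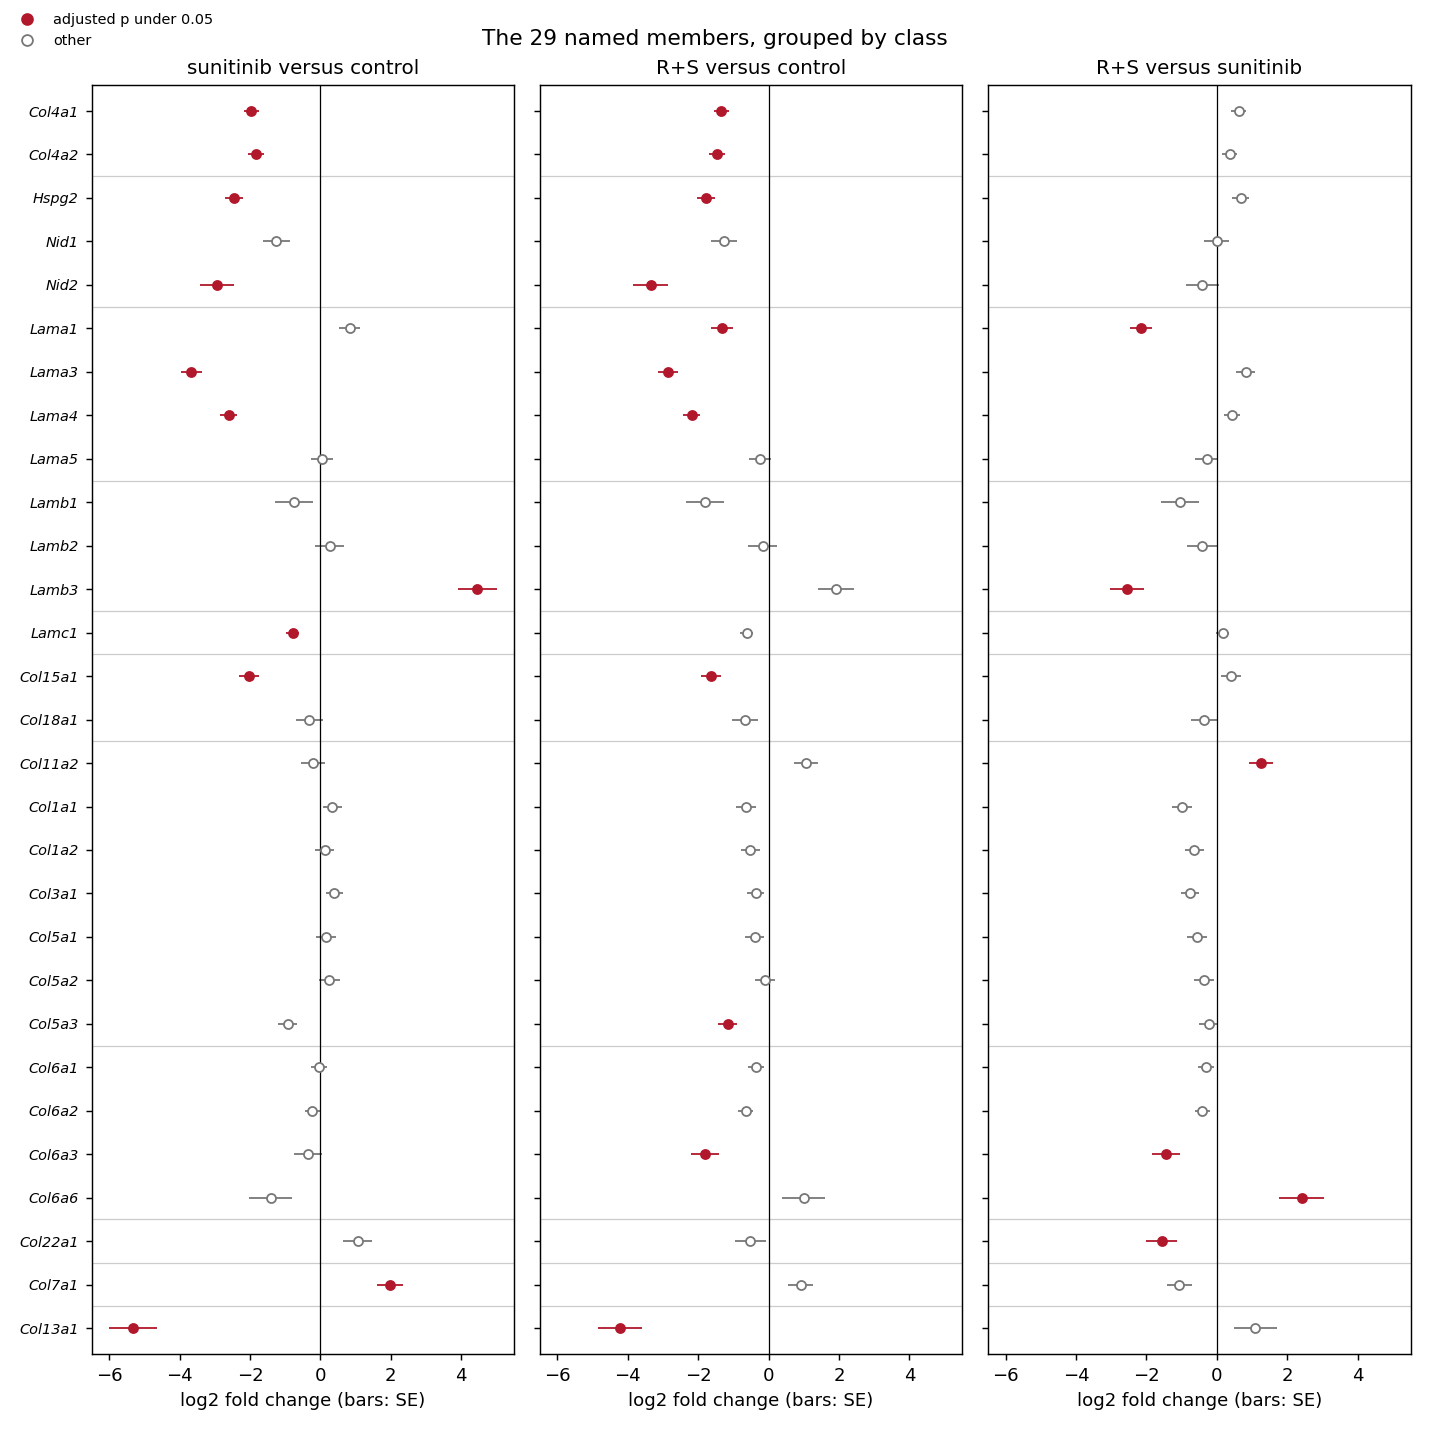
Log2 fold change (x axis) with its SE (bars) for 29 members, those that passed in any comparison and the main chains (y axis, grouped by class), in the 3 comparisons, with 4 tumors a group. Filled points passed the test; Col13a1 lies farthest left in both comparisons with control, at -5.32 and -4.23, and Lamb3 farthest right under sunitinib, at 4.46.

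Per kilobase of exon, Col4a1 and Col4a2 were the members with the highest mean level in control tumors, at 61.4 ± 17.4 and 43.6 ± 11.8 CPM per kb (SD, n = 4), ahead of Col3a1 at 24.4 ± 8.68 and Col1a1 at 21.2 ± 8.35 CPM per kb. The SDs of Col4a1 and Col4a2 overlapped, as did those of Col3a1 and Col1a1, and Col4a1 stood above Col3a1 beyond both SDs. In sunitinib-treated tumors Col3a1 and Col1a1 led, at 32.1 ± 5.10 and 26.9 ± 6.30 CPM per kb, and Col4a1 came after Col1a2, at 15.7 ± 2.83 CPM per kb. R+S-treated tumors had Col4a1 in the lead again by mean, at 24.1 ± 3.67 CPM per kb, with Col3a1 at 18.9 ± 2.28 CPM per kb and overlapping SDs. That order depends on the exon lengths used. Without scaling to length, the R+S means were 185.6 ± 22.35 CPM for Col3a1 and 180.2 ± 27.42 CPM for Col4a1. As a share of the summed level per kb of all 58 members, Col4a1 and Col4a2 made up 25.4% to 39.3% in control tumors, 10.7% to 14.9% under sunitinib and 18.9% to 23.8% after R+S. The 3 ranges did not overlap. Col1a1, Col1a2 and Col3a1 together made up 11.7% to 22.2%, 26.2% to 43.0% and 21.9% to 25.6% of it in the same order.

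Col4a1 and Col4a2 encode the chains of the type IV collagen trimer found in nearly all basement membranes, with a pair of Col4a1 chains to each Col4a2 chain. The genes lie head to head on chromosome 8, Col4a1 at 11198423 to 11312826 on the minus strand and Col4a2 at 11312805 to 11449287 on the plus strand (GRCm38, GENCODE), so that 22 bases lie in the first exon of both. Those bases, shown because both chains fell in both treatments, read 5′ to 3′ on the Col4a2 strand as follows (RefSeq, GRCm38.p6, chr8:11312805-11312826), with a GC box (GGGCGG, sought on both strands) in capitals.
Col4a2 and Col4a1, shared start: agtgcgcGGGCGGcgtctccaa
Among the 250 bases before each RefSeq start, GGGCGG was present in 32.7% of 32851 promoter windows of all genes and in 56.5% of the 46 windows of members. Copies were counted in members with a window that passed against control. Of those lower, Hspg2 had 5, Col4a2 and Col5a3 had 2 each, and Col4a1, Col6a3, Col13a1 and Col15a1 had 0. Of those higher, Col7a1 had 1 and Lamb3 had 0.

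Col4a1 stood at 303, 456, 621 and 454 CPM in the control tumors, 143, 93.05, 122 and 111 CPM in the sunitinib-treated tumors and 218, 176, 174 and 152 CPM in the R+S-treated tumors. Every treated tumor was below the lowest control tumor, and every R+S-treated tumor was above every sunitinib-treated tumor. Its level fell by 1.97 ± 0.22 (adjusted p = 0.00023) on the log2 scale under sunitinib (± SE here and below, edgeR quasi-likelihood test with Benjamini-Hochberg adjustment over all tested genes), or 3.91-fold, and by 1.35 ± 0.21 (adjusted p = 0.00434) under R+S. In these bulk samples fewer cells of a type and less RNA per cell cannot be told apart. Col4a2 stood at 204, 299, 389.7 and 262 CPM in the control tumors, 93.1, 92.6, 76.3 and 62.98 CPM in the sunitinib-treated tumors and 127, 111, 106 and 73.2 CPM in the R+S-treated tumors. Again no treated tumor reached the control range, whereas sunitinib and R+S tumors overlapped. Col4a2 fell by 1.83 ± 0.23 (adjusted p = 0.000532) under sunitinib and by 1.47 ± 0.22 (adjusted p = 0.00362) under R+S. Between R+S and sunitinib the log2 fold changes were 0.62 ± 0.21, adjusted p = 0.081 for Col4a1 and 0.36 ± 0.22, adjusted p = 0.282 for Col4a2. The other tested type IV chains, Col4a3, Col4a5 and Col4a6, which form the trimers of kidney and smooth muscle, stayed under 6 CPM in all tumors. By edgeR they did not pass in any comparison of all 12 tumors. Under R+S against control Col4a3 was at -2.90 ± 1.04, adjusted p = 0.143, with every R+S-treated tumor below every control tumor. By DESeq2 3 type IV chains were lower in that comparison, Col4a3 beside Col4a1 and Col4a2. Sunitinib tumor 6 was highest of the 12 tumors for Col4a3, at 2.71 CPM against 0.0321 to 0.230 CPM in the other 3 sunitinib-treated tumors. Col4a3 was at -0.46 ± 0.92, adjusted p = 0.809 under sunitinib with tumor 6, and without it Col4a3 was lower than control, at -2.81 (adjusted p = 0.0211). Against sunitinib its change under R+S was -2.44 ± 1.03, adjusted p = 0.139 with tumor 6 and -0.09 (adjusted p = 0.931) without it.

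Endothelial markers moved with these genes. Of the 12 on the list (Pecam1, Cdh5, Kdr and others), 11 were lower under sunitinib and 11 under R+S, their summed level was 636 to 842 CPM in control, 61.5 to 102 CPM in sunitinib-treated and 138 to 176 CPM in R+S-treated tumors, and none was at 0 in any tumor. Between R+S and sunitinib 9 of the 12 were higher in R+S. Among 10 pericyte and smooth muscle markers 4 were lower under sunitinib and 2 under R+S, with summed levels of 402 to 729, 175 to 425 and 297 to 677 CPM in control, sunitinib-treated and R+S-treated tumors. Of 10 fibroblast markers 0 passed against control by edgeR (1 under sunitinib and 3 under R+S at an unadjusted p under 0.05, and 0 and 3 by DESeq2), and their sums overlapped (76.7 to 435, 130 to 209 and 106 to 150 CPM). Over all genes 4.48% passed under sunitinib, 4.16% under R+S and 7.21% between them. The 0 of 10 fibroblast markers is near those shares and does not set them apart from all genes. The part of endothelial cells, pericytes, smooth muscle cells and fibroblasts in the results was not tested.

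**Figure D2:**
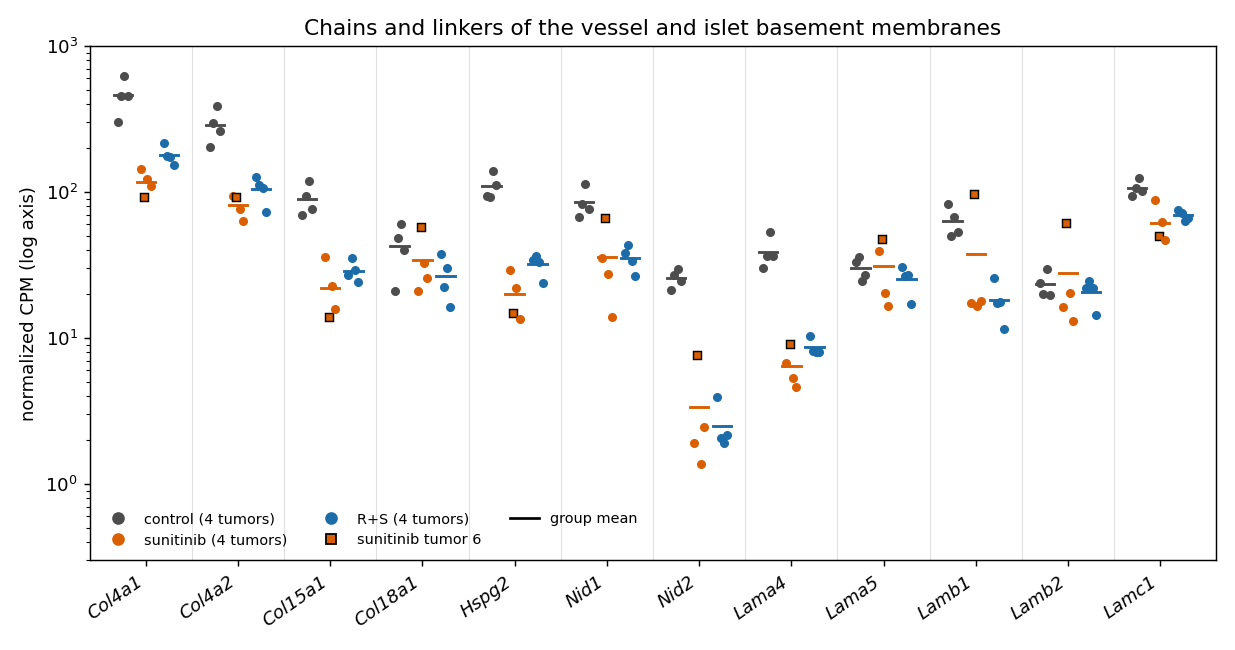
Normalized CPM (log axis) of 12 basement membrane genes (x axis) in each tumor, with horizontal lines at group means and a square for sunitinib tumor 6. For Col4a1, Col4a2, Col15a1, Hspg2, Nid2 and Lama4 all 8 treated tumors lie below the 4 control tumors, while Lama5, Lamb2 and Col18a1 overlap.

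Perlecan, the product of Hspg2, is a large heparan sulfate proteoglycan that binds growth factors in basement membranes. Its gene starts at chr4:137468769 (GRCm38, GENCODE), and the bases before it hold 5 copies of the GC box, which is why they are shown (RefSeq, GRCm38.p6, chr4:137468553-137468768, plus strand, GGGCGG in capitals).
Hspg2, upstream: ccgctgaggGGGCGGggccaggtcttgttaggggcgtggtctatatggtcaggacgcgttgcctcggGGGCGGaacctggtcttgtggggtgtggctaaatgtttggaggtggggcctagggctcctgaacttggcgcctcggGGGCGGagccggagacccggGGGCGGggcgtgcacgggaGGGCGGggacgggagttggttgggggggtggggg
Hspg2 stood at 94.4, 92.6, 139 and 112 CPM in the control tumors, 29.2, 14.9, 21.9 and 13.4 CPM in the sunitinib-treated tumors and 33.98, 36.5, 33.1 and 23.9 CPM in the R+S-treated tumors. The lowest control tumor was above the highest treated tumor, in a gap from 36.5 to 92.6 CPM. Hspg2 fell by 2.46 ± 0.25 (adjusted p = 0.000153) under sunitinib, 5.49-fold, and by 1.78 ± 0.25 (adjusted p = 0.00211) under R+S.

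Nidogens link the laminin network to type IV collagen. Nid2 stood at 21.2, 27.1, 29.8 and 24.5 CPM in the control tumors, 1.91, 7.63, 1.37 and 2.47 CPM in the sunitinib-treated tumors and 3.91, 2.07, 1.90 and 2.15 CPM in the R+S-treated tumors. All treated tumors were below all control tumors, with sunitinib tumor 6 highest among the treated. Nid2 fell by 2.94 ± 0.49 (adjusted p = 0.00449) under sunitinib and by 3.35 ± 0.50 (adjusted p = 0.00347) under R+S, and without sunitinib tumor 6 the change under sunitinib was -3.74 (adjusted p = 4.94e-05). Exons of Rtraf on the other strand overlap 8.45% of the Nid2 exon length. Nid1 stood at 67.4, 82.3, 112 and 76.9 CPM in the control tumors, 35.1, 65.96, 27.6 and 13.9 CPM in the sunitinib-treated tumors and 38.3, 43.3, 33.5 and 26.4 CPM in the R+S-treated tumors. Treated tumors were again below control tumors, though tumor 6 at 65.96 CPM came next to control tumor 1 at 67.4 CPM. The log2 fold changes of Nid1 were -1.25 ± 0.37, adjusted p = 0.0928 under sunitinib and -1.26 ± 0.37, adjusted p = 0.0816 under R+S, so neither passed by edgeR. Without sunitinib tumor 6 the first was -1.73 (adjusted p = 0.00575). By DESeq2 all 3 linkers, Nid1 among them, were lower in both treatments at an adjusted p under 0.05.

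Among the laminin alpha chains, Lama4 is the chain of endothelial basement membranes and Lama5 is shared by mature vessels and epithelia. Lama4 stood at 30.1, 36.7, 52.9 and 36.5 CPM in the control tumors, 6.69, 9.12, 5.30 and 4.62 CPM in the sunitinib-treated tumors and 10.3, 8.18, 8.00 and 7.97 CPM in the R+S-treated tumors. Control and treated tumors did not overlap, and treated tumors held between 4.62 and 10.3 CPM. Lama4 fell by 2.60 ± 0.24 (adjusted p = 6.95e-05) under sunitinib, 6.07-fold, and by 2.18 ± 0.24 (adjusted p = 0.000429) under R+S. Lama5 stood at 33.2, 36.1, 24.6 and 26.9 CPM in the control tumors, 39.5, 47.9, 20.3 and 16.5 CPM in the sunitinib-treated tumors and 30.7, 26.5, 27.03 and 17.1 CPM in the R+S-treated tumors. The 3 groups overlapped, with log2 fold changes of 0.04 ± 0.31, adjusted p = 0.956 under sunitinib and -0.25 ± 0.32, adjusted p = 0.697 under R+S. The sign under sunitinib turned, to -0.25, without tumor 6.

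Lama3, an alpha chain of epithelial laminin that anchors hemidesmosomes, stood at 7.96, 7.25, 10.1 and 11.5 CPM in the control tumors, 0.970, 0.525, 0.871 and 0.513 CPM in the sunitinib-treated tumors and 1.11, 1.49, 1.14 and 1.34 CPM in the R+S-treated tumors. No treated tumor was above 1.49 CPM and no control tumor below 7.25 CPM. Lama3 fell by 3.67 ± 0.30 (adjusted p = 2.52e-05) under sunitinib, 12.7-fold, and by 2.85 ± 0.28 (adjusted p = 0.000251) under R+S. Lama1, an alpha chain best known from embryonic basement membranes, stood at 11.1, 11.9, 11.2 and 10.03 CPM in the control tumors, 16.9, 24.4, 17.3 and 20.4 CPM in the sunitinib-treated tumors and 2.64, 3.16, 7.89 and 3.96 CPM in the R+S-treated tumors. Here the groups were ordered without overlap, with sunitinib above control and R+S below control. The change under sunitinib was 0.83 ± 0.30, adjusted p = 0.154, which did not pass, while Lama1 fell by 1.33 ± 0.30 (adjusted p = 0.0339) under R+S against control. That last call was lost in 7 of 8 refits that left out 1 tumor (all but the one without R+S tumor 7), with adjusted p up to 0.117. Lama2, the chain of muscle and nerve, lay between 1.32 and 7.98 CPM in all tumors and passed in no comparison.

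Beta and gamma chains complete the trimers. Lamb1 stood at 83.03, 49.97, 66.99 and 53.1 CPM in the control tumors, 17.5, 97.3, 16.5 and 18.0 CPM in the sunitinib-treated tumors and 25.8, 17.4, 17.5 and 11.5 CPM in the R+S-treated tumors. Of the treated tumors 7 were at 25.8 CPM or less, under every control tumor, and sunitinib tumor 6 was above every control tumor. The log2 fold changes were -0.76 ± 0.54, adjusted p = 0.462 under sunitinib and -1.81 ± 0.55, adjusted p = 0.0905 under R+S. Without tumor 6, Lamb1 was lower under sunitinib, at -1.87 (adjusted p = 0.00126). Lamb2, the beta chain of mature vessels and muscle, stood at 23.96, 19.9, 29.7 and 19.6 CPM in the control tumors, 16.4, 61.7, 20.3 and 12.99 CPM in the sunitinib-treated tumors and 21.9, 24.5, 21.9 and 14.3 CPM in the R+S-treated tumors. Groups overlapped and tumor 6 was highest, with log2 fold changes of 0.26 ± 0.42, adjusted p = 0.762 under sunitinib, which turned to -0.49 without tumor 6, and -0.17 ± 0.42, adjusted p = 0.859 under R+S. Lamc1, the gamma chain of most trimers, stood at 93.9, 106, 125 and 102 CPM in the control tumors, 87.5, 49.99, 62.4 and 46.9 CPM in the sunitinib-treated tumors and 75.6, 71.9, 63.4 and 66.2 CPM in the R+S-treated tumors. Every treated tumor was below every control tumor. Lamc1 fell by 0.79 ± 0.18 (adjusted p = 0.0301) under sunitinib, and the change under R+S was -0.62 ± 0.18, adjusted p = 0.0768. Its call under sunitinib was lost without any of control tumors 2, 3 and 4 or sunitinib tumors 6, 8 and 12, with adjusted p up to 0.104. Without tumor 6 the change was -0.70 (adjusted p = 0.0544).

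Lamb3, the beta chain that pairs with the Lama3 product in epithelial laminin, went the other way from Lama3. The gene spans chr1:193207699-193343878 (GRCm38, GENCODE). The bases before its RefSeq start are shown because it had the highest fold change of all tested members (RefSeq, GRCm38.p6, chr1:193301744-193301992, plus strand). They hold neither the GC box nor TATAAA on either strand.
Lamb3, upstream: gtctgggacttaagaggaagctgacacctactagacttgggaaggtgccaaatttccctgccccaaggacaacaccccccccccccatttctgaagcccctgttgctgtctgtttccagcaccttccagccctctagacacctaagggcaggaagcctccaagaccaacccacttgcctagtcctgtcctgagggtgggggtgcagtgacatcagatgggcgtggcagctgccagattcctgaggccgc
Lamb3 stood at 0.257, 0.185, 0.127 and 0.197 CPM in the control tumors, 3.42, 5.00, 7.49 and 1.28 CPM in the sunitinib-treated tumors and 0.610, 0.909, 0.435 and 0.965 CPM in the R+S-treated tumors. The control values rest on 5 to 12 counts a tumor and the sunitinib values on 40 to 284 counts. Lamb3 rose by 4.46 ± 0.54 (adjusted p = 0.000489) under sunitinib, or 22.01-fold, and its change under R+S was 1.91 ± 0.51, adjusted p = 0.0589, with all 4 tumors of each treatment above the control range. Col7a1, whose product forms the anchoring fibrils that epithelial laminin binds, stood at 4.13, 3.36, 2.94 and 3.52 CPM in the control tumors, 12.02, 18.9, 18.8 and 5.04 CPM in the sunitinib-treated tumors and 5.83, 6.99, 4.95 and 8.42 CPM in the R+S-treated tumors. All treated tumors were above all control tumors. Col7a1 rose by 1.97 ± 0.37 (adjusted p = 0.0087) under sunitinib and changed by 0.91 ± 0.36, adjusted p = 0.182 under R+S. With treated tumors of a shared prefix summed, the call under sunitinib was lost, at 1.62 (adjusted p = 0.0539). Of 8 duct markers, Sox9, Muc1 and Spp1 were higher under sunitinib, while the summed level of the list overlapped (298 to 705 CPM, against 417 to 562 CPM in control). Under R+S 0 of the 8 passed by edgeR (3 higher at an unadjusted p under 0.05, 2 by DESeq2). Over all genes 4.48% passed under sunitinib and 4.16% under R+S. Acinar markers were higher in both treatments, as given above. The part of duct and acinar cells in the result was not tested.

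**Figure D3:**
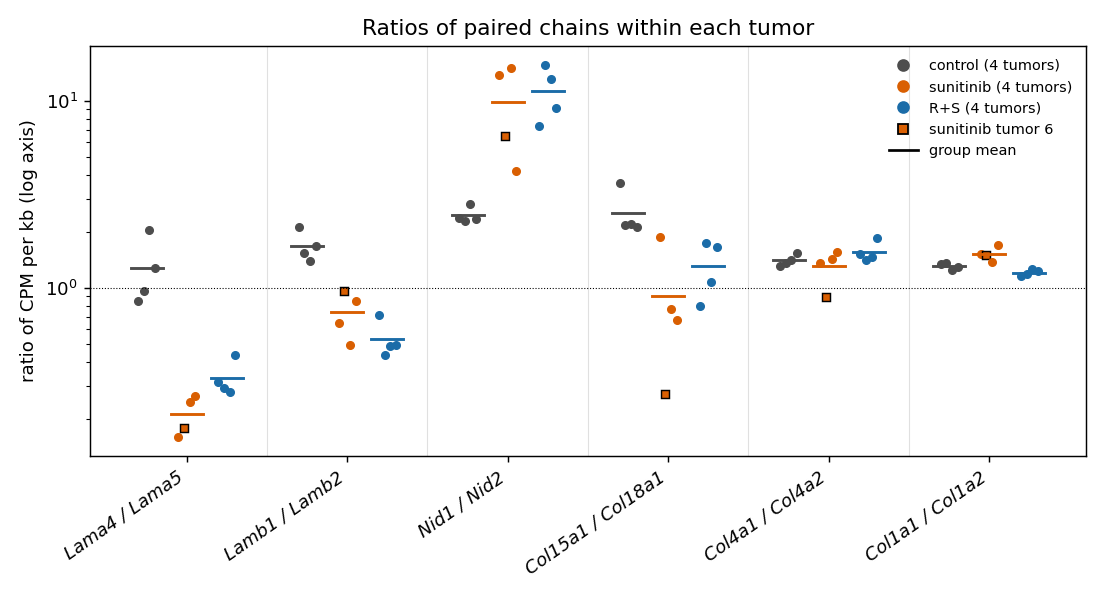
Ratio of the levels per kb of 6 chain pairs (x axis) within each tumor (y axis, log scale), with lines at group means and a square for sunitinib tumor 6. Lama4 to Lama5 and Lamb1 to Lamb2 lie lower, and Nid1 to Nid2 higher, in all 8 treated tumors than in the 4 control tumors.

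Ratios between related chains were compared within each tumor. Per kb, the ratio of Lama4 to Lama5 was 0.855 to 2.04 in control tumors, 0.160 to 0.265 under sunitinib and 0.279 to 0.439 after R+S. The ratio of Lamb1 to Lamb2 was 1.39 to 2.13 in control tumors, 0.496 to 0.968 in sunitinib-treated and 0.436 to 0.720 in R+S-treated tumors, and tumor 6, high for both genes, had 0.968. The ratio of Nid1 to Nid2 was 2.27 to 2.81 in control tumors, 4.2 to 14.98 under sunitinib and 7.30 to 15.6 under R+S. The ratio of Col15a1 to Col18a1, described next, was 2.11 to 3.64 in control tumors, 0.27 to 1.88 under sunitinib and 0.798 to 1.73 under R+S. In both treatments, treated and control tumors did not overlap for these 4 of the 9 ratios computed, with an exact permutation p of 0.0286 each way (two-sided, the smallest that 4 against 4 allows), which is 0.0644 when adjusted over the 27 ratio comparisons computed, so none passed. The same p and adjusted p held for Col1a1 to Col1a2, at 1.25 to 1.36 in control tumors, 1.37 to 1.70 under sunitinib and 1.16 to 1.26 under R+S, for sunitinib against control and R+S against sunitinib, and for Lamb1 to Lamc1 for R+S against control. The ratio of Col4a1 to Col4a2 was 1.32 to 1.54 in control, 0.891 to 1.56 in sunitinib-treated and 1.41 to 1.85 in R+S-treated tumors, with exact permutation p of 0.8 and 0.229 against control (two-sided, n = 4 a group).

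Col15a1 and Col18a1 encode the multiplexins, proteoglycan collagens of the outer face of basement membranes whose C-terminal fragments include endostatin. Col15a1 stood at 69.2, 93.9, 119 and 76.6 CPM in the control tumors, 35.8, 13.96, 22.6 and 15.8 CPM in the sunitinib-treated tumors and 27.02, 35.1, 29.3 and 24.3 CPM in the R+S-treated tumors. Treated tumors stopped at 35.8 CPM, and control tumors began at 69.2 CPM. Col15a1 fell by 2.02 ± 0.29 (adjusted p = 0.00145) under sunitinib and by 1.63 ± 0.28 (adjusted p = 0.00826) under R+S. Col18a1, the source of endostatin, stood at 21.02, 48.2, 59.9 and 40.1 CPM in the control tumors, 21.1, 57.1, 32.3 and 25.7 CPM in the sunitinib-treated tumors and 37.5, 22.4, 30.2 and 16.2 CPM in the R+S-treated tumors. The 3 groups overlapped, with log2 fold changes of -0.31 ± 0.38, adjusted p = 0.68 under sunitinib and -0.67 ± 0.38, adjusted p = 0.343 under R+S.

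Col13a1 encodes a transmembrane collagen of cell adhesion sites. The bases before its start are shown because it had the lowest fold change of all members (RefSeq, GRCm38.p6, chr10:61979109-61979358, minus strand), with TATAAA, present in 12.4% of all windows, in capitals and no GC box.
Col13a1, upstream: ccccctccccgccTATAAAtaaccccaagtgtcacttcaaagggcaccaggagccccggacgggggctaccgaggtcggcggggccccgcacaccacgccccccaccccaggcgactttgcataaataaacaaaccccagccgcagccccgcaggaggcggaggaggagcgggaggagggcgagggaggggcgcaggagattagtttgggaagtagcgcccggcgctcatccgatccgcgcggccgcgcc
Col13a1 stood at 13.3, 14.3, 14.4 and 13.5 CPM in the control tumors, 0.0766, 0.912, 0.317 and 0.0642 CPM in the sunitinib-treated tumors and 0.638, 0.707, 0.761 and 0.842 CPM in the R+S-treated tumors. The control tumors lay within 13.3 to 14.4 CPM, and no treated tumor reached 1 CPM. It fell by 5.32 ± 0.67 (adjusted p = 0.000613) under sunitinib, 40.04-fold, and without tumor 6 the log2 fold change was -6.45 (adjusted p = 2.36e-05). Under R+S it fell by 4.23 ± 0.63 (adjusted p = 0.00332), 18.8-fold. The sunitinib values rest on 2 to 33 counts a tumor.

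**Figure D4:**
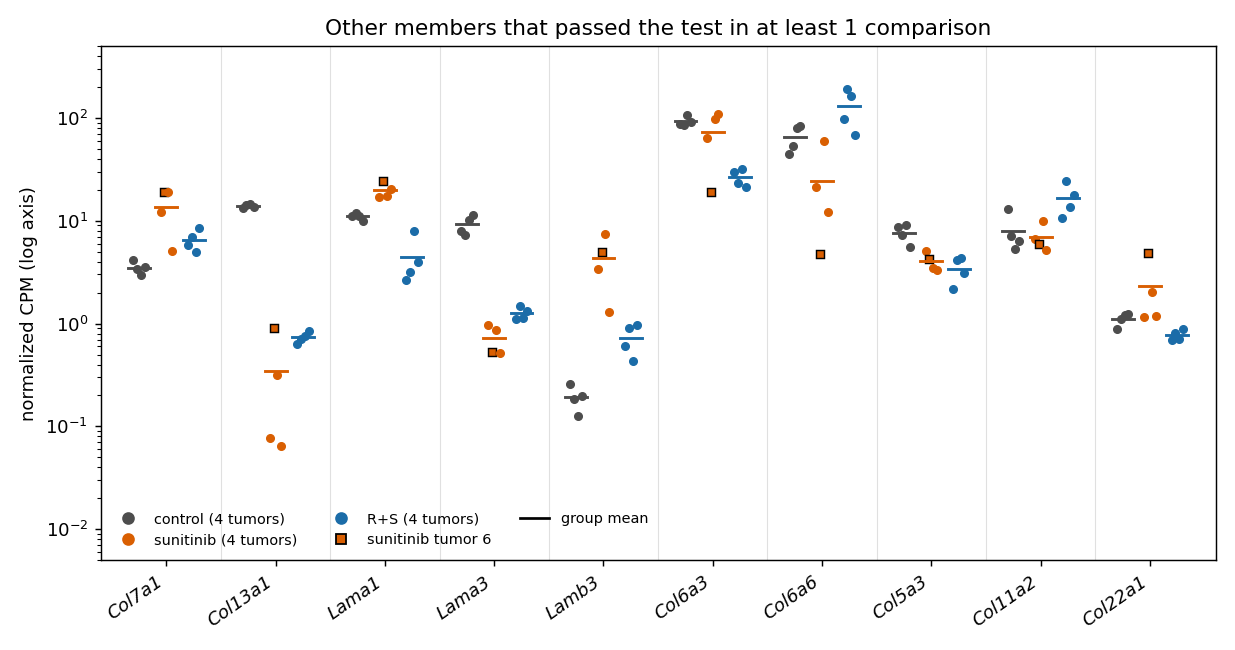
Normalized CPM (log axis) in each tumor of the 10 other members that passed in at least 1 comparison (x axis), with lines at group means and a square for sunitinib tumor 6. Control tumors lie above all treated tumors for Col13a1 and Lama3 and below them for Lamb3 and Col7a1, and Lama1 separates all 3 groups.

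Of the 12 chains of collagen types I, III, V and VI, 0 passed under sunitinib by edgeR (2 of 12 at an unadjusted p under 0.05, 1 by DESeq2), where 4.48% of all genes passed. Under R+S against control 2 of the 12 were lower, Col5a3 and Col6a3, where 4.16% of all genes passed. Col1a1 and Col1a2 make the type I collagen of connective tissue and Col3a1 the type III collagen beside it. Col1a1 stood at 137, 162, 192 and 64.1 CPM in the control tumors, 218, 139, 142 and 205 CPM in the sunitinib-treated tumors and 85.6, 93.8, 100 and 77.5 CPM in the R+S-treated tumors. Col1a2 stood at 195, 226, 291 and 94.4 CPM in the control tumors, 273, 175, 197 and 228 CPM in the sunitinib-treated tumors and 140.1, 149.6, 151 and 119 CPM in the R+S-treated tumors. Col3a1 stood at 254, 252, 328 and 123 CPM in the control tumors, 386, 291, 271 and 312 CPM in the sunitinib-treated tumors and 198, 209, 176 and 159 CPM in the R+S-treated tumors. For all 3, sunitinib-treated tumors lay within or above the control range and above every R+S-treated tumor, and control tumor 4 was the lowest of the 12. Log2 fold changes under sunitinib were 0.34 ± 0.28, adjusted p = 0.526 for Col1a1, 0.12 ± 0.27, adjusted p = 0.839 for Col1a2 and 0.40 ± 0.24, adjusted p = 0.392 for Col3a1. Under R+S they were -0.64 ± 0.28, adjusted p = 0.228, -0.53 ± 0.27, adjusted p = 0.304 and -0.37 ± 0.24, adjusted p = 0.423 in the same order. R+S against sunitinib gave -0.98 ± 0.28, adjusted p = 0.0557, -0.64 ± 0.27, adjusted p = 0.139 and -0.76 ± 0.24, adjusted p = 0.0711, and without sunitinib tumor 6 Col1a1 passed, at -1.08 (adjusted p = 0.0433).

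**Figure D5:**
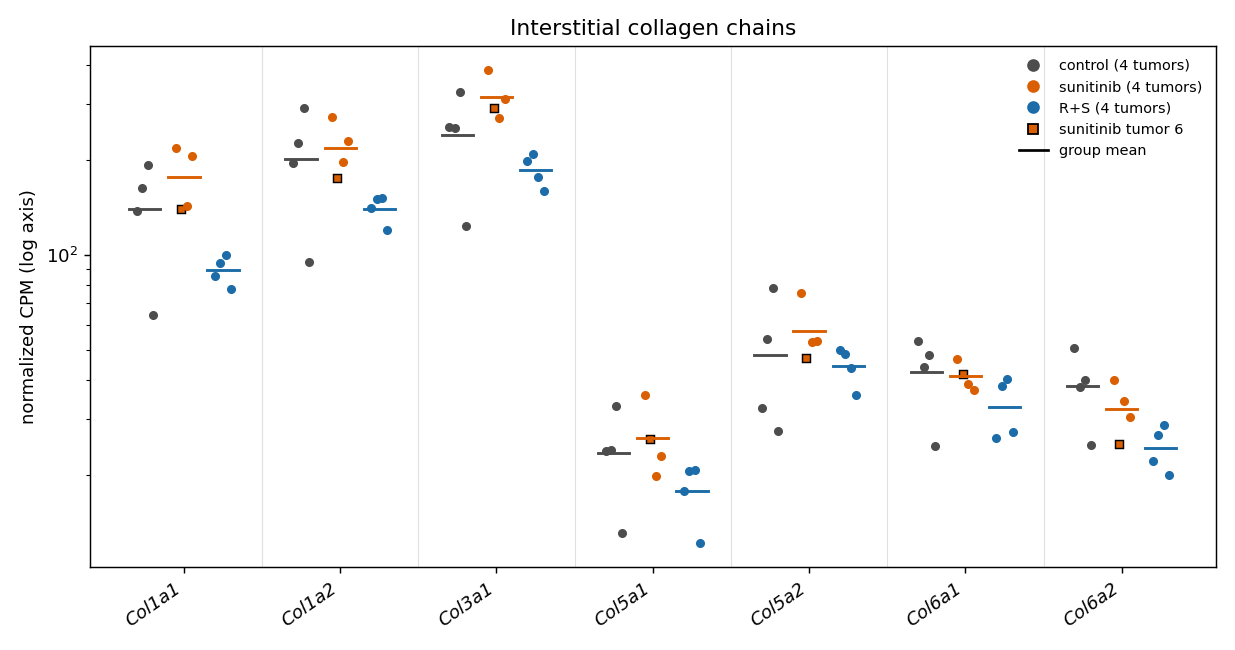
Normalized CPM (log axis) of 7 interstitial collagen chains (x axis) in each tumor, with lines at group means and a square for sunitinib tumor 6. Control tumor 4 is the lowest of the 12 for Col1a1, Col1a2, Col3a1, Col5a2 and Col6a1, and the R+S-treated tumors lie below all sunitinib-treated tumors for the leading 3.

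Type V collagen sets the width of type I fibrils. Col5a1 stood at 23.8, 24.02, 33.2 and 13.1 CPM in the control tumors, 35.8, 26.03, 19.9 and 23.04 CPM in the sunitinib-treated tumors and 17.8, 20.6, 20.7 and 12.2 CPM in the R+S-treated tumors. Col5a2 stood at 32.6, 53.97, 78.1 and 27.5 CPM in the control tumors, 75.8, 47.1, 52.95 and 53.3 CPM in the sunitinib-treated tumors and 49.7, 48.5, 43.8 and 35.9 CPM in the R+S-treated tumors. Both overlapped between control and each treatment. Their log2 fold changes under sunitinib were 0.15 ± 0.28, adjusted p = 0.788 for Col5a1 and 0.25 ± 0.29, adjusted p = 0.662 for Col5a2. Under R+S they were -0.40 ± 0.28, adjusted p = 0.449 and -0.11 ± 0.29, adjusted p = 0.867. The remaining type V chain, Col5a3, stood at 8.68, 7.22, 9.18 and 5.58 CPM in the control tumors, 5.03, 4.26, 3.48 and 3.34 CPM in the sunitinib-treated tumors and 2.16, 4.14, 4.32 and 3.07 CPM in the R+S-treated tumors. Treated tumors did not reach the control range. Col5a3 fell by 1.16 ± 0.27 (adjusted p = 0.0363) under R+S and changed by -0.93 ± 0.27, adjusted p = 0.0841 under sunitinib. The R+S call held in 1 of 8 refits leaving out a tumor, that without control tumor 4, and its adjusted p reached 0.123 in the others.

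Type VI collagen forms beaded filaments around cells from Col6a1, Col6a2 and 1 of several larger chains. Col6a1 stood at 53.3, 44.02, 47.99 and 24.8 CPM in the control tumors, 46.8, 41.7, 38.97 and 37.2 CPM in the sunitinib-treated tumors and 26.2, 38.2, 40.2 and 27.4 CPM in the R+S-treated tumors. Col6a2 stood at 50.5, 37.96, 39.9 and 24.9 CPM in the control tumors, 39.9, 25.1, 34.3 and 30.6 CPM in the sunitinib-treated tumors and 22.1, 26.7, 28.7 and 20.03 CPM in the R+S-treated tumors. Both overlapped between groups. Their log2 fold changes under sunitinib were -0.05 ± 0.22, adjusted p = 0.925 for Col6a1 and -0.24 ± 0.21, adjusted p = 0.567 for Col6a2. Under R+S they were -0.37 ± 0.22, adjusted p = 0.383 and -0.65 ± 0.21, adjusted p = 0.115. Of the larger chains, Col6a3 stood at 88.0, 84.4, 107 and 91.5 CPM in the control tumors, 63.9, 19.1, 97.9 and 109 CPM in the sunitinib-treated tumors and 29.5, 23.4, 31.98 and 21.3 CPM in the R+S-treated tumors. R+S-treated tumors were all below control tumors, and sunitinib tumor 6 was the lowest of the 12 while the other sunitinib-treated tumors lay at 63.9 CPM or more. Col6a3 fell by 1.80 ± 0.40 (adjusted p = 0.0298) under R+S and changed by -0.36 ± 0.39, adjusted p = 0.646 under sunitinib (-0.04 without tumor 6). Its call under R+S was lost in all 8 refits that left out a tumor of that comparison, with log2 fold changes of -1.90 to -1.71 and adjusted p up to 0.106. Col6a6, another of the larger chains, stood at 44.1, 52.96, 79.5 and 83.5 CPM in the control tumors, 21.3, 4.73, 59.5 and 12.1 CPM in the sunitinib-treated tumors and 97.2, 191, 162 and 67.7 CPM in the R+S-treated tumors. Col6a4 and Col6a5 lay between 0.0832 and 64.2 CPM, spread widely within the treated groups and did not pass.

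Lama1 and Lamb3 had the smallest adjusted p of the 6 members that passed between R+S and sunitinib. Lama1 fell by 2.16 ± 0.31 (adjusted p = 0.0147) and Lamb3 by 2.55 ± 0.49 (adjusted p = 0.0257), without overlap of the tumors listed above. Col6a3 fell by 1.45 ± 0.40 (adjusted p = 0.0492), but sunitinib tumor 6 was below all R+S-treated tumors, and without it the change was -1.76 (adjusted p = 0.0125). Col6a6 rose by 2.41 ± 0.64 (adjusted p = 0.0445), with the lowest R+S-treated tumor at 67.7 CPM and the highest sunitinib-treated tumor at 59.5 CPM. Col11a2, a minor fibrillar chain of cartilage, stood at 13.1, 7.17, 5.30 and 6.34 CPM in the control tumors, 6.61, 5.94, 9.89 and 5.20 CPM in the sunitinib-treated tumors and 10.5, 24.4, 13.7 and 17.6 CPM in the R+S-treated tumors. Its R+S-treated tumors were all above the sunitinib range. Col11a2 rose by 1.26 ± 0.35 (adjusted p = 0.049). Col22a1, a collagen of tissue junctions, stood at 0.877, 1.11, 1.22 and 1.24 CPM in the control tumors, 1.15, 4.86, 2.03 and 1.19 CPM in the sunitinib-treated tumors and 0.694, 0.808, 0.707 and 0.891 CPM in the R+S-treated tumors. The R+S-treated tumors were all below the sunitinib range, and tumor 6 was the highest of the 12. Col22a1 fell by 1.57 ± 0.43 (adjusted p = 0.0496), and by 0.91 without tumor 6 (adjusted p = 0.0579).

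These 6 calls were sensitive to single tumors. Leaving out R+S tumor 4 or 5 left 0 members past the threshold (16 and 15 at an unadjusted p under 0.05 by edgeR), R+S tumor 7 left 1 and R+S tumor 10 left 2, and without sunitinib tumor 5, 6, 8 or 12 there were 8, 6, 4 and 4. Lama1 passed in 6 of the 8 refits (not without R+S tumor 4 or 5) and Lamb3 in 5 (not without R+S tumor 4, 5 or 7). Col6a3, Col6a6 and Col22a1 passed in 2 of the 8 each and Col11a2 in 1. Without sunitinib tumor 6 Col13a1 was higher in R+S, at 2.23 (adjusted p = 0.0241), against 1.09 ± 0.60, adjusted p = 0.238 with that tumor. Col11a2 was at 1.2 (adjusted p = 0.0635) without sunitinib tumor 6. With DESeq2 in place of edgeR 12 members passed.

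The other 23 tested members include the minor collagens of cartilage. By selection 0 of them passed by edgeR in any comparison of all 12 tumors, since every member that passed was named above. At an unadjusted p under 0.05 by edgeR, 4, 3 and 6 were reached under sunitinib, under R+S and between them. By DESeq2 at an adjusted p under 0.05 the counts were 1, 3 and 1. Their log2 fold changes ran from -3.15 to 2.97. The lowest was that of Lamc3, a laminin gamma chain, between R+S and sunitinib, which was 0.34 (adjusted p = 0.807) without tumor 6, the tumor with 8.15 CPM against 0.128 to 1.43 CPM in the other 11. The highest level in a single tumor among them was that of Col27a1, a fibrillar collagen of cartilage. Col27a1 stood at 66.03, 48.5, 36.3 and 45.1 CPM in the control tumors, 38.6, 466, 53.9 and 86.4 CPM in the sunitinib-treated tumors and 74.6, 153, 95.1 and 31.4 CPM in the R+S-treated tumors. Sunitinib tumor 6 was the highest of the 12 by far, and the log2 fold change under sunitinib was 1.72 ± 0.72, adjusted p = 0.216, against 0.28 (adjusted p = 0.743) without tumor 6. Col10a1, the collagen of hypertrophic cartilage, stood at 0.834, 2.33, 2.49 and 1.69 CPM in the control tumors, 13.2, 5.33, 8.23 and 1.86 CPM in the sunitinib-treated tumors and 17.4, 18.7, 20.5 and 1.19 CPM in the R+S-treated tumors. Its level exceeded the control range in 3 sunitinib-treated and 3 R+S-treated tumors, with log2 fold changes of 1.97 ± 0.76, adjusted p = 0.179 under sunitinib and 2.97 ± 0.79, adjusted p = 0.0561 under R+S. Col16a1, a fibril-associated collagen, stood at 7.64, 14.7, 12.4 and 7.36 CPM in the control tumors, 20.8, 54.4, 14.5 and 13.3 CPM in the sunitinib-treated tumors and 8.13, 8.41, 10.4 and 11.9 CPM in the R+S-treated tumors. R+S-treated tumors were all below the sunitinib-treated tumors, at -1.41 ± 0.43, adjusted p = 0.0635 with tumor 6 and -0.74 (adjusted p = 0.0942) without it. Col9a2, a fibril-associated collagen of cartilage, stood at 35.6, 69.4, 0.989 and 1.32 CPM in the control tumors, 36.5, 35.3, 2.48 and 5.39 CPM in the sunitinib-treated tumors and 32.2, 2.42, 1.74 and 5.62 CPM in the R+S-treated tumors. Each group held tumors above 30 CPM and tumors under 6 CPM. These 4 genes were singled out after their values were seen. Col8a1, a short-chain collagen of vessels, and the fibril-associated Col12a1 and Col14a1 lay between 4.90 and 59.3 CPM with overlapping groups. Col4a4, Col9a1, Col17a1, Col19a1, Col24a1 and Col26a1 did not pass the filter and stayed at 0.449 CPM or less in all tumors apart from sunitinib tumor 6, which had 4.86 CPM of Col24a1, 2.90 CPM of Col9a1, 1.74 CPM of Col4a4 and 0.967 CPM of Col26a1.

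Genes that make and modify collagen chains were examined alongside. Of 25 tested genes of collagen biosynthesis (26 listed), 2 were higher and 1 lower under sunitinib, 1 was higher and 2 lower under R+S, and 0 passed between R+S and sunitinib by edgeR (8 at an unadjusted p under 0.05, 2 by DESeq2). Against control this is 12% of the list in each treatment, beside 4.48% and 4.16% of all genes, and 7.21% of all genes passed between R+S and sunitinib. P4ha1, the catalytic subunit of the prolyl hydroxylase that stabilizes the collagen helix, stood at 42.4, 36.5, 30.4 and 31.6 CPM in the control tumors, 101, 140.3, 59.4 and 97.9 CPM in the sunitinib-treated tumors and 95.2, 117, 71.9 and 57.4 CPM in the R+S-treated tumors. All treated tumors were above all control tumors. P4ha1 rose by 1.5 ± 0.27 (adjusted p = 0.00683) under sunitinib and by 1.27 ± 0.27 (adjusted p = 0.0216) under R+S. P4ha2, a second such subunit, stood at 17.8, 12.2, 7.30 and 6.93 CPM in the control tumors, 35.9, 84.3, 17.5 and 54.6 CPM in the sunitinib-treated tumors and 29.6, 30.2, 24.6 and 17.2 CPM in the R+S-treated tumors, and rose by 2.12 ± 0.45 (adjusted p = 0.0195) under sunitinib with an overlap of 1 tumor with the control range. Serpinh1, the chaperone of procollagen, stood at 56.8, 67.5, 78.9 and 47.4 CPM in the control tumors, 40.4, 30.9, 29.4 and 32.9 CPM in the sunitinib-treated tumors and 28.8, 27.6, 21.9 and 23.4 CPM in the R+S-treated tumors. It fell by 0.91 ± 0.17 (adjusted p = 0.00917) under sunitinib and by 1.30 ± 0.17 (adjusted p = 0.00138) under R+S, while Fkbp10, another chaperone of the endoplasmic reticulum, fell by 1.14 ± 0.26 (adjusted p = 0.0315) under R+S.

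Of 17 other basement membrane genes, 1 was lower under sunitinib, 2 lower and 1 higher under R+S, and 1 higher in R+S than in sunitinib. These are 5.88%, 17.6% and 5.88% of the list, beside 4.48%, 4.16% and 7.21% of all genes. Sparc, a collagen-binding glycoprotein of basement membranes, stood at 341, 423, 564 and 278 CPM in the control tumors, 217, 145, 176 and 251 CPM in the sunitinib-treated tumors and 187, 163, 158 and 125 CPM in the R+S-treated tumors. It fell by 1.03 ± 0.23 (adjusted p = 0.0277) under sunitinib and by 1.34 ± 0.23 (adjusted p = 0.00823) under R+S, below all control tumors in every treated tumor. Vwa1, which binds perlecan, fell by 1.66 ± 0.42 (adjusted p = 0.0493) under R+S. Ntn4, a netrin that binds laminin gamma chains, stood at 3.70, 4.68, 6.54 and 5.10 CPM in the control tumors, 6.07, 6.47, 8.36 and 5.20 CPM in the sunitinib-treated tumors and 21.6, 12.8, 11.6 and 9.43 CPM in the R+S-treated tumors. Its R+S-treated tumors were above all other tumors, and it rose by 1.47 ± 0.29 (adjusted p = 0.0151) against control and by 1.08 ± 0.28 (adjusted p = 0.0428) against sunitinib. For genes outside the members no refit that left out 1 tumor is given. How far the calls of Vwa1, Ntn4 and the other such genes rest on single tumors is therefore not shown. Of 18 tested collagen and laminin receptors (19 listed, integrins among them) 0 passed by edgeR in each of the 3 comparisons, against 4, 1 and 8 at an unadjusted p under 0.05 and 2, 0 and 4 by DESeq2.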

How the data were processed

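RNA was sequenced from 12 RIP1TAG2 tumors with a strand-specific poly(A) kit. The deposited values are whole read counts per gene, made by the authors with cutadapt 1.2.1, TopHat2 2.0.9 and HTSeq 0.5.4p3 on GRCm38 (per the submitters' processing notes). The annotation release and strand setting of the counting are not given in the sources used here, so overlapping and antisense genes are uncertain. The counts were not normalized on deposit. Here, genes passing filterByExpr (minimum count 10, minimum total 15) were fitted in edgeR 4.0.16 (R 4.3.3, limma 3.58.1) with TMM factors, using the robust quasi-likelihood F-test on 3 groups of 4 tumors, with Benjamini-Hochberg adjustment and a threshold of 0.05. CPM in the text carries TMM factors. Levels per kb used union exon lengths of GENCODE release M21. Chain ratios were compared by two-sided exact permutation over 70 arrangements, and multiple ratios were adjusted together. The count test was tested on simulated data. Genes were named with values if they passed in any comparison, or if they belong to the main vessel and islet basement membrane or interstitial chains, whatever their result. The values of 1 tested member are not reported here. Members and lists were chosen with earlier results of these data known. Alternatives covered DESeq2 1.42.0, scaling, filters, the tumors fitted, summed label prefixes, a fold minimum and leaving out each tumor. Promoter windows from RefSeq were present for 42 of 58 members, and no base of an annotated exon is printed apart from the 22 shared by Col4a1 and Col4a2. Total counts per tumor limit precision as given with the values, and protein sequences were not used here.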

Additional observations from a re-analysis of the deposited data

Results flagged for a closer look

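Of 87 groups of 4 tumors (29 named members in 3 groups each), 3 had 1 tumor far from the other 3, by Dixon's ratio of the gap to the whole range on the log2 CPM scale. Chance gives about 1 such group in 20. For Lamb1, sunitinib tumor 6 stood above the other sunitinib-treated tumors with a ratio of 0.95, at 97.3 CPM. For Lama4, R+S tumor 4 stood above the other R+S-treated tumors with a ratio of 0.898, at 10.3 CPM, and for Nid2 the same tumor had a ratio of 0.83, at 3.91 CPM. Both of its values were under every control tumor.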

How the results depend on the processing

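The number of members past the threshold under sunitinib against control was 11 and stayed between 9 and 14 in all alternatives (10 to 13 when single tumors were left out). For R+S against control it was 11, with 18 when only the 8 tumors compared were fitted, 20 with DESeq2, and 8 to 10 with 1 tumor left out. For R+S against sunitinib it was 6, with 2 without a filter, 0 when only the 8 tumors compared were fitted (edgeR, 18 at an unadjusted p under 0.05), 3 with label prefixes summed, 12 with DESeq2 and 0 to 8 with 1 tumor left out. The causes were not tested. No other scaling moved the median of all genes by more than 0.04 on the log2 scale. No paired analysis was possible because no 2 groups share 2 replicate numbers.

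Of the called members, Col4a1, Col4a2, Col13a1, Col15a1, Hspg2, Lama3, Lama4 and Nid2 passed against control in both treatments whichever tumor was left out. Col7a1 under sunitinib lost its call with label prefixes summed (1.616, adjusted p = 0.0539). No called change turned its sign. Signs that turned belonged to members that had not passed in the same comparison. Under sunitinib, leaving out 1 tumor gave log2 fold changes of -0.12 to 0.346 for Col1a2, -0.045 to 0.364 for Col5a1, -0.236 to 0.079 for Col6a1, -0.433 to 0.14 for Col11a2, -0.246 to 0.248 for Lama5 and -0.489 to 0.491 for Lamb2. Summed prefixes gave -0.213 for Lama5 and -0.048 for Lamb2. Under R+S, Col5a2 ran from -0.303 to 0.226. For R+S against sunitinib, the ranges were -0.567 to 0.011 for Col18a1, -1.289 to 0.063 for Lamb1, -0.662 to 0.318 for Lamb2, -0.274 to 0.47 for Nid1 and -0.705 to 0.39 for Nid2. Nid1 also turned to 0.013 without a filter and to 0.29 with prefixes summed.

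The tumors, 4 to a group, carry label prefixes that do not cross the treatments. Lamb3 and Col13a1 rest on few counts in control and treated tumors respectively, which limits the precision of their fold changes.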
